A study of Mus musculus with 12 samples.

Results

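Nectin4, Plcd4, Anxa8, Ltb4r1, Dusp13b, Ano7, Nkx2-9, Sytl1, Sec14l5 and Ppp1r36 are 10 of the 41079 genes in the expression tables. They were picked by name as genes that stood low in untreated mouse embryonic stem cells and were among the largest rises with etoposide in wild type. The wild-type values therefore chose them, and those values are given as a description without a test. RNA was sequenced from embryonic stem cells, which are pluripotent and derive from the blastocyst, in 12 libraries of 4 groups with 3 biological replicates each. The groups were Bod1l knockout cells with etoposide, Bod1l knockout cells without it, wild-type cells with etoposide and wild-type cells without it. The labels name tamoxifen for both knockout groups and for no wild-type group, so the knockout and tamoxifen cannot be told apart. The labels give no dose or duration for either agent, no deleted part of Bod1l, and no clone or separate culture.

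Etoposide holds topoisomerase II on cut DNA and so leaves double-strand breaks. In stem cells such breaks activate the transcription factor p53, which binds a response element made of repeated 10-base units and raises arrest, death and repair genes. The 10 genes have quite different known roles. Nectin4, Ltb4r1 and Ano7 encode proteins of the cell surface. Plcd4, Anxa8, Sytl1 and Sec14l5 encode proteins that act on or bind membrane lipids. Dusp13b and Ppp1r36 belong to protein phosphatases, and Nkx2-9 encodes a homeobox transcription factor. Most are known from differentiated tissue such as stratified epithelium, leukocytes, testis, prostate or neural tube. That restriction is background knowledge, since stem cells alone were measured here.

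Promoter sequence was a feature that the choice of genes did not use. RefSeq promoters on GRCm38.p6, each from 250 bases before to 50 bases after a start site, were matched by symbol for 9 of the 10 genes (10 promoters, as Plcd4 had a pair). Dusp13b had no entry of its own name. An exact match to the p53 decamer, the 10-base unit of the response element, stood in the promoters of Sytl1, Nkx2-9 and Sec14l5. The decamer is palindromic, so a search of a single strand covered both. Of all 32851 promoters, 8.36% held such a match. No member promoter held the full 20-base element with both cores intact and at most 2 mismatches, which 0.158% of all promoters held. The window does not reach introns or distal sites. The promoters with a decamer are shown to place that match, which is in capitals, at -241, -24 and -128 bases from the start of Sytl1, Nkx2-9 and Sec14l5 in that order.
Sytl1 (chr4:133263038-133263337, minus strand): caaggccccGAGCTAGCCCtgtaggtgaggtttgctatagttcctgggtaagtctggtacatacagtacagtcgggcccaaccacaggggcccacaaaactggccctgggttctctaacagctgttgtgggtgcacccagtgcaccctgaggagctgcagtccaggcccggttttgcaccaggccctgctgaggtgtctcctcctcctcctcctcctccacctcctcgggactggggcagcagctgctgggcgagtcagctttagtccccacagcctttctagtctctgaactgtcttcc
Nkx2-9 (chr12:56613235-56613534, minus strand): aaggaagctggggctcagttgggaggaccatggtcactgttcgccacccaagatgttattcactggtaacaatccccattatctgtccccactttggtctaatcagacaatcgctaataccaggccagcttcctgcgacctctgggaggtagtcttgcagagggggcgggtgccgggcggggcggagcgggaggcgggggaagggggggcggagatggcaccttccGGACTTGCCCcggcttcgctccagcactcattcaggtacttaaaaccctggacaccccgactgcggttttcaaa
Sec14l5 (chr16:5146859-5147158, plus strand): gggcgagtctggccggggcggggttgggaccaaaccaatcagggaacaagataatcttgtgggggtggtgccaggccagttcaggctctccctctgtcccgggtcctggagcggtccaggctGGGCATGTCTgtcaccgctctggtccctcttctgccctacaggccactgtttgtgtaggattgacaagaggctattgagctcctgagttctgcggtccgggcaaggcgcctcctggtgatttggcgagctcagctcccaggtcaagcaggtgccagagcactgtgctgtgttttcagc

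Base composition differed widely among the members. The promoter of Ppp1r36 held 24 CpG dinucleotides and those of Nkx2-9 and Sec14l5 held 15 and 10, while each of the others held 3 to 5. The median over all promoters was 7, with quartiles at 3 and 20. Those of Ppp1r36 and Nectin4 are shown for this contrast, with each CpG in capitals.
Ppp1r36 (chr12:76417349-76417648, plus strand): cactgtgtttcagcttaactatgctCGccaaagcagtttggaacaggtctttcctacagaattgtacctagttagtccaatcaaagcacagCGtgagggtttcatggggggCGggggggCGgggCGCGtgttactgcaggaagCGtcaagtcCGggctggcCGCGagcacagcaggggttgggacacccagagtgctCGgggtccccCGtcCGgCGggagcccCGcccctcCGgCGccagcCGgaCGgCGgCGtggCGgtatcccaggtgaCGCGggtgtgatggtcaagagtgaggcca
Nectin4 (chr1:171369923-171370222, plus strand): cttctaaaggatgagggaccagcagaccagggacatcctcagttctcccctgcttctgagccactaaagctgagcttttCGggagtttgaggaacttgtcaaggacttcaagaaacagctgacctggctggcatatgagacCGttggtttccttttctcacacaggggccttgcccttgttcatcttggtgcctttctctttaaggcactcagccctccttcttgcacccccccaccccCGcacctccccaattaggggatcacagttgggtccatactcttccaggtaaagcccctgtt

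Other short motifs were searched on both strands, with matches counted whether or not they overlap another motif. The TATA box letters TATAAA were in no member promoter, against 13.6% of all promoters. The AP-1 site letters TGACTCA were in none, against 5.2% of all. The E-box letters CACGTG were in none, against 7.15% of all. GGGCGG was in the promoters of Nkx2-9, Ppp1r36, Ltb4r1 and Sec14l5 (35.7% of all promoters), and CCAAT in 5 promoters of Plcd4, Nectin4, Ppp1r36 and Sec14l5 (37.4% of all).

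The libraries held 5.23 to 7.76 gigabases of aligned sequence as estimated from coverage over FPKM. Between replicates of a group, r ranged from 0.997 to 0.9975 over genes, and genes do not count as replicates. Bod1l stood at 11.75 to 12.95 TPM in the treated knockout and 11.2 to 12.0 TPM in the untreated knockout, against 46.5 to 51.1 TPM in treated and 48.5 to 50.6 TPM in untreated wild type. All 11 stem cell markers found in the tables exceeded 1 TPM. Their sum was 7579 to 7924 TPM in the treated knockout and 8020 to 8136 TPM in the untreated knockout, and 8224 to 8525 TPM in treated and 8787 to 8806 TPM in untreated wild type. The sum was lower with etoposide in each genotype and lower in the knockout than in wild type, and its part in the members' rise was not tested. Dppa5a was its largest part, at 3335 TPM in the treated and 3259 TPM in the untreated knockout, and 3932 TPM in treated and 3806 TPM in untreated wild type. Levels below are the deposited TPM, which is scaled by transcript length and to a fixed total per library. Changes are differences of log2(TPM + 1) ± SE from limma, on which changes of low genes such as these come out too small.

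In the Bod1l knockout, etoposide raised each of the 10. The rise that chose the genes was that of wild type. The changes ran from 1.01 ± 0.14 for Plcd4 to 1.69 ± 0.13 for Ppp1r36, with a median of 1.39 against 0.00 over all 14107 genes fitted. Every treated knockout library stood above every untreated one for each gene, a separation seen upwards in 21.4% of all genes. The limma test called all 10 higher (largest adjusted p = 0.000208), against 14.5% of all genes fitted, and a called change of at least 1 was found in 0.865% of genes. The choice also asked for low levels in untreated cells and does not say of which genotype, so the untreated knockout libraries may have had a part in it. In RNA from whole cultures, more cells carrying a transcript and more transcript per cell cannot be told apart. Whether replicates came from separate cultures is not in the labels, and p values rest on the variation among libraries, which may be technical.

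**Figure D1:**
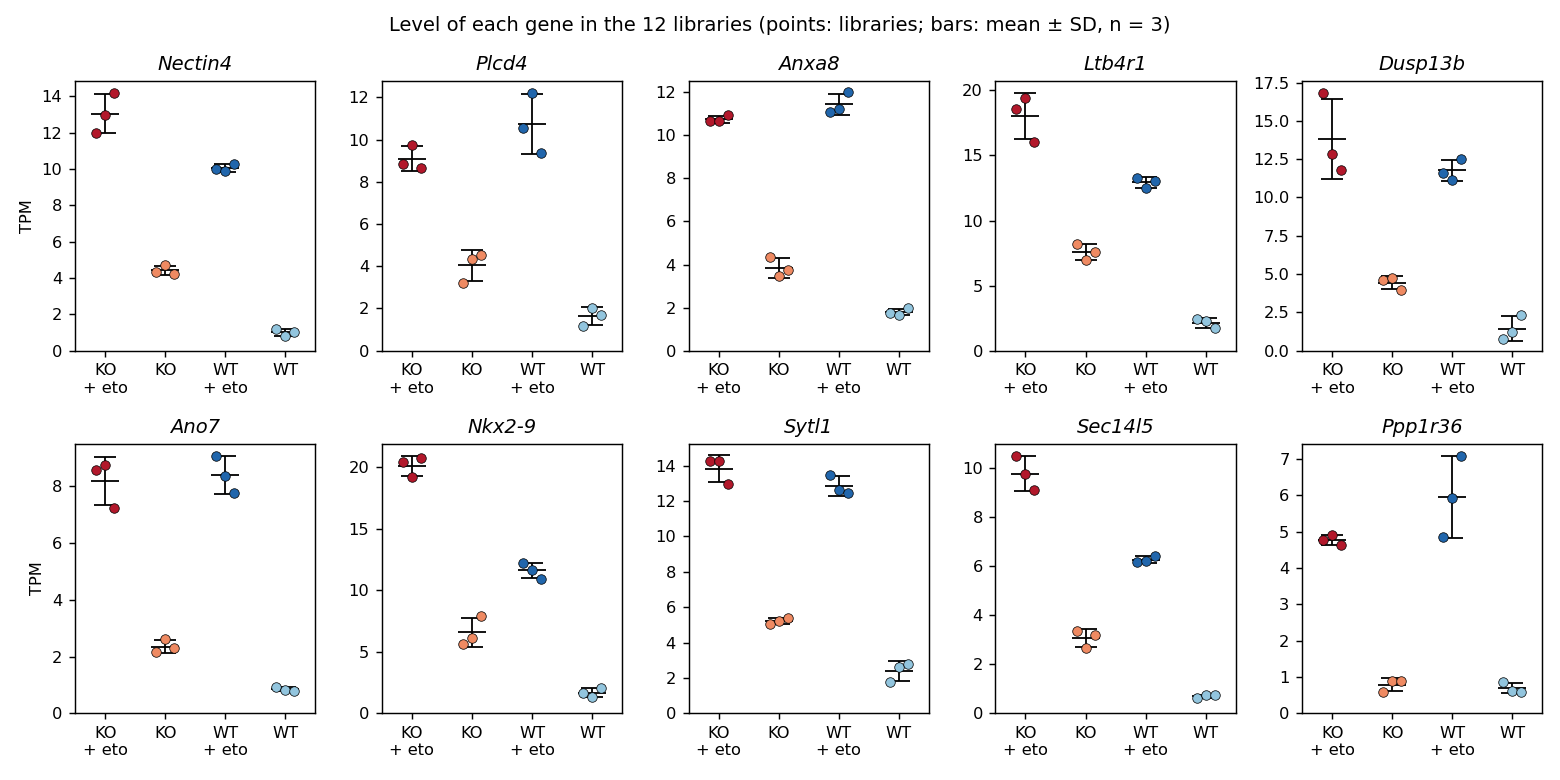
Level of each of the 10 genes in TPM (vertical axis, linear from 0) in Bod1l knockout with etoposide (KO + eto), untreated knockout (KO), wild type with etoposide (WT + eto) and untreated wild type (WT). Points are libraries and bars show the mean ± SD (n = 3); treated libraries stand above untreated ones in both genotypes, and in all panels but that of Ppp1r36 the untreated knockout stands above untreated wild type.

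Nectin4 encodes an adhesion molecule of the immunoglobulin superfamily found at epithelial junctions, and it lies on chromosome 1 from 171197741 to 171215855 (GRCm39, as for all gene positions). It had 12.0, 13.0 and 14.2 TPM in the treated knockout, against 4.31, 4.71 and 4.24 TPM in the untreated knockout. Treated wild type had 10.0, 9.86 and 10.3 TPM, against 1.18, 0.809 and 1.04 TPM in untreated wild type. The 4 groups did not overlap, and their order was treated knockout, treated wild type, untreated knockout, untreated wild type. The change in the knockout was 1.37 ± 0.09 (limma adjusted p = 3.79e-07), and that in wild type was 2.46 ± 0.09.

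Ltb4r1, on chromosome 14 from 56002154 to 56005951, encodes BLT1, the high-affinity receptor through which leukotriene B4 attracts leukocytes. Its level was 18.6, 19.45 and 16.01 TPM in the treated knockout and 8.23, 7.01 and 7.60 TPM in the untreated knockout. In wild type it was 13.3, 12.5 and 13.0 TPM with etoposide and 2.44, 2.30 and 1.73 TPM without. All 4 groups were separate, in the order seen for Nectin4, and the untreated knockout reached 58.9% of the mean of treated wild type, the highest such share of the 10 genes. Etoposide changed Ltb4r1 by 1.14 ± 0.10 in the knockout (limma adjusted p = 4.45e-06), and the wild-type difference was 2.15 ± 0.10.

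Ano7 encodes a member of the anoctamin (TMEM16) membrane protein family known from prostate (chromosome 1 from 93301518 to 93332026). The treated knockout held 8.56, 8.74 and 7.22 TPM, against 2.14, 2.61 and 2.30 TPM in the untreated knockout. With etoposide, wild type held 9.07, 8.37 and 7.75 TPM, against 0.917, 0.837 and 0.783 TPM without it. The treated groups of both genotypes overlapped, while the untreated knockout lay above untreated wild type in every library. Changes with etoposide were 1.45 ± 0.09 in the knockout (limma adjusted p = 5.07e-07) and 2.35 ± 0.09 in wild type.

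Plcd4 encodes a phospholipase C of the delta class, which cuts the membrane lipid PIP2 and is needed in mouse sperm for the acrosome reaction (chromosome 1 from 74581175 to 74605137). Treated knockout libraries had 8.85, 9.76 and 8.64 TPM, against 3.22, 4.36 and 4.53 TPM in untreated knockout libraries. Treated wild-type libraries had 10.6, 12.2 and 9.39 TPM, against 1.17, 2.02 and 1.70 TPM in untreated ones. It showed the smallest change of the 10 in the knockout, 1.01 ± 0.14 (limma adjusted p = 0.000208), beside 2.16 ± 0.14 in wild type. Without replicate 1 of the untreated knockout, its lowest library, the change was 0.89.

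Anxa8 encodes a calcium-dependent phospholipid-binding annexin found in stratified epithelium (chromosome 14 from 33807936 to 33822528). Values were 10.7, 10.7 and 10.9 TPM in the treated knockout and 4.35, 3.45 and 3.76 TPM in the untreated knockout. They were 11.1, 11.2 and 12.0 TPM in treated wild type and 1.77, 1.68 and 1.96 TPM in untreated wild type. Anxa8 was the single member whose treated knockout libraries all lay below the treated wild-type ones, and by a small margin. The etoposide change was 1.28 ± 0.08 in the knockout (limma adjusted p = 3.54e-07) and 2.15 ± 0.08 in wild type.

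Sytl1 encodes synaptotagmin-like protein 1, an effector of the exocytosis GTPase Rab27 (chromosome 4 from 132980401 to 132990398). It stood at 14.3, 14.3 and 13.0 TPM in the treated knockout, against 5.04, 5.21 and 5.37 TPM in the untreated knockout. Its wild-type values were 13.5, 12.6 and 12.5 TPM with etoposide and 1.75, 2.65 and 2.78 TPM without. Treated knockout and treated wild type overlapped. The knockout change was 1.26 ± 0.10 (limma adjusted p = 3.39e-06), and the wild-type difference was 2.04 ± 0.10.

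Sec14l5 encodes a protein of the Sec14-like lipid-binding family (chromosome 16 from 4964758 to 5005135). The treated knockout had 10.5, 9.76 and 9.10 TPM, against 3.38, 2.66 and 3.19 TPM in the untreated knockout. Treated wild type had 6.17, 6.24 and 6.42 TPM, against 0.615, 0.732 and 0.736 TPM in untreated wild type. No groups overlapped, and the knockout stood higher in both states, with means 4.43-fold those of wild type when untreated and 1.56-fold when treated. The change with etoposide was 1.41 ± 0.09 in the knockout (limma adjusted p = 3.65e-07) and 2.10 ± 0.09 in wild type.

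Dusp13b encodes a dual-specificity protein phosphatase known from testis (chromosome 14 from 21783463 to 21792947). Its values were 16.8, 12.9 and 11.8 TPM in the treated knockout and 4.61, 4.75 and 3.95 TPM in the untreated knockout. In wild type they were 11.6, 11.2 and 12.5 TPM with etoposide and 0.737, 1.25 and 2.31 TPM without. It had the widest fitted error of the 10, and replicate 1 of the treated knockout stood above the other treated libraries. The change was 1.43 ± 0.19 in the knockout (limma adjusted p = 0.000165) and 2.44 ± 0.19 in wild type.

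Ppp1r36 encodes a regulatory subunit of protein phosphatase 1 (chromosome 12 from 76464267 to 76486266). The treated knockout had 4.77, 4.90 and 4.62 TPM, against 0.6, 0.887 and 0.897 TPM in the untreated knockout. Treated wild type had 4.84, 5.93 and 7.09 TPM, against 0.859, 0.627 and 0.6 TPM in untreated wild type. It was the exception among the 10, since the untreated groups of the genotypes overlapped at a level under 1 TPM. Its change in the knockout, 1.69 ± 0.13 (limma adjusted p = 1.44e-06), stood beside a wild-type difference of 2.03 ± 0.13. Ppp1r36 passed the filter of a mean of 1 TPM through its treated libraries, those of wild type included. Passing therefore called for a rise with etoposide, but not for a rise in the knockout. A filter on wild-type libraries alone kept Ppp1r36 as well, and its knockout change was again 1.69. Mean coverage in untreated libraries was 0.841 to 1.43 reads per base, the lowest of the 10 genes.

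Nkx2-9 encodes a homeobox factor of the ventral neural tube (chromosome 12 from 56658174 to 56660354). It had 20.4, 19.2 and 20.7 TPM in the treated knockout, against 5.65, 6.13 and 7.94 TPM in the untreated knockout. Treated wild type had 12.2, 11.7 and 11.0 TPM, against 1.70, 1.34 and 2.06 TPM in untreated wild type. All groups were separate, and the treated knockout mean was 1.73-fold that of treated wild type, the highest ratio of the 10. Etoposide changed it by 1.49 ± 0.12 in the knockout (limma adjusted p = 1.92e-06), and the wild-type difference was 2.23 ± 0.12.

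**Figure D2:**
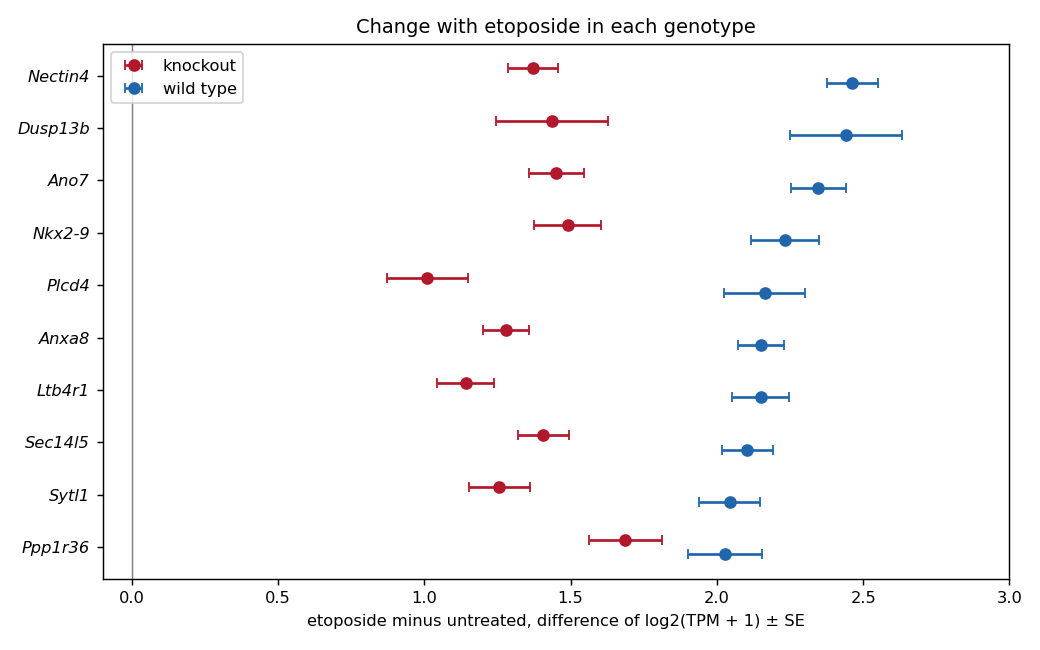
Difference of log2(TPM + 1) between etoposide and untreated libraries (horizontal axis) for each gene, ordered by its wild-type value, in the knockout (red) and in wild type (blue). Points are limma estimates and bars ± SE; knockout values lie between 1.01 and 1.69 and wild-type values, which chose the genes, between 2.03 and 2.46.

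The members' wild-type differences, which ran from 2.03 to 2.46, ranked 2 to 14 among 14107 genes. Every treated library was higher for each of the 10, where 27.0% of all genes showed this, and nothing is read from it since this contrast chose them. The rule names no numeric threshold. Of the 2103 fitted genes no higher in untreated wild type than Sytl1, at a mean of 2.39 TPM, 13 rose at least as much as the smallest member, Ppp1r36. The 3 that are not members were Tap1 (2.56 ± 0.09), Plch2 (2.03 ± 0.09) and Ankrd65 (2.03 ± 0.16). Just below Ppp1r36 came 5830418P13Rik (1.99 ± 0.10) and Fosl1 (1.96 ± 0.13).

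**Figure D3:**
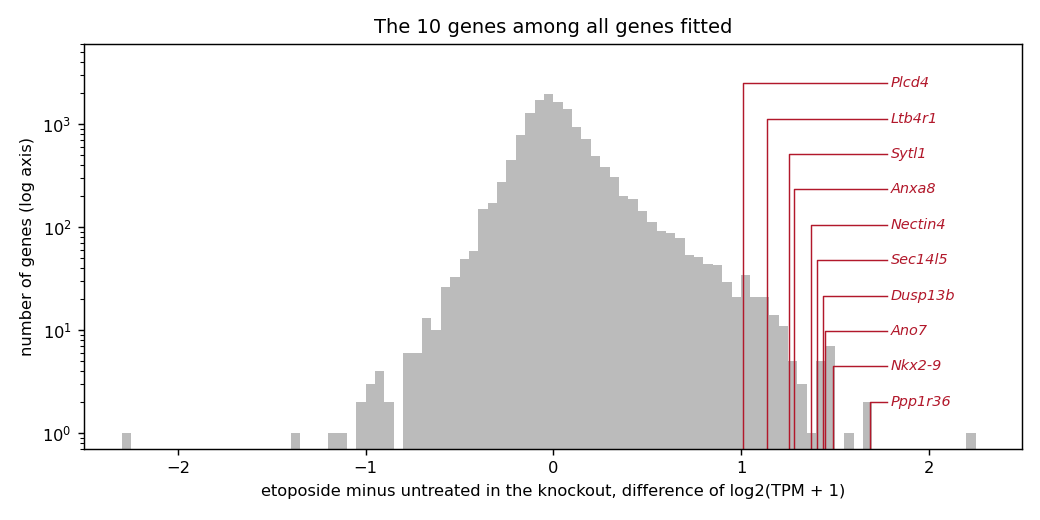
Number of genes (vertical log axis) by difference of log2(TPM + 1) between etoposide and untreated knockout libraries (horizontal axis), for the 14107 genes fitted, with the 10 genes marked in red. The marked genes lie between 1.01 and 1.69.

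The level in untreated cells differed between genotypes for 9 of the 10 genes by separation of every library. In those 9 each untreated knockout library stood above each untreated wild-type library, a separation seen upwards in 32.8% of all genes. Knockout means were 2.14-fold (Anxa8) to 4.43-fold (Sec14l5) those of wild type, and 1.14-fold for Ppp1r36. On the log2 scale the differences between knockout and wild type were 1.49 ± 0.12 for Nkx2-9, 1.45 ± 0.10 for Ltb4r1, 1.43 ± 0.09 for Nectin4, 0.79 ± 0.08 for Anxa8 and 0.08 ± 0.13 for Ppp1r36. These comparisons use the untreated wild-type libraries in which the genes were picked as low, so they carry no test.

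Under etoposide the genotypes lay closer together on the log2 scale for 9 of the 10 genes, and further apart for Ppp1r36. Nectin4, Ltb4r1, Nkx2-9 and Sec14l5 were higher in every treated knockout library, Anxa8 was lower in every one, and the other 5 overlapped. Separation upwards occurred in 28.1% and downwards in 26.1% of all genes. The differences ranged from 0.74 ± 0.12 for Nkx2-9 to -0.26 ± 0.13 for Ppp1r36, with a median of 0.15. Without replicate 3 of treated wild type the value for Ppp1r36 was -0.14 and that for Anxa8 was -0.05, against -0.08 with it. Without replicate 2 of treated wild type that for Plcd4 was -0.12, against -0.21 with it, and without replicate 1 of the treated knockout that for Dusp13b was 0.06, against 0.20 with it. The sign for Ano7 (-0.04 ± 0.09) turned without replicate 1 of treated wild type or replicate 3 of the treated knockout, the extremes being -0.09 and 0.04.

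The log2 change with etoposide was smaller in the knockout than in wild type for each of the 10 genes, by 0.34 ± 0.18 for Ppp1r36 to 1.15 ± 0.20 for Plcd4. The sizes moved with the pseudocount, since with 0.1 in place of 1 the difference, knockout minus wild type, ran from -0.47 for Ppp1r36 to -1.67 for Nectin4. With FPKM it ran from -0.25 for Ppp1r36 to -0.82 for Plcd4, and that of Ppp1r36 was -0.22 without replicate 3 of treated wild type. Choosing genes by their rise in wild type favours that direction, so the difference was not tested. Over all genes, 1.16% were called lower and 0.0709% higher in this difference. A smaller change in the knockout was not particular to the members. The 43 fitted p53 targets had a median change of 0.667 in the knockout and 1.005 in wild type. The 5 genes most alike in profile, chosen for that likeness and given below, had differences from -0.29 (Mcam) to -0.68 (Gpx3). The scale mattered for the size. In TPM, the rise of Nkx2-9 was 13.5 in the knockout and 9.92 in wild type, and that of Sec14l5 was 6.72 in the knockout and 5.58 in wild type, so both rose by more TPM in the knockout. The remaining members rose by fewer TPM in the knockout, as for Plcd4 with 5.05 in the knockout and 9.10 in wild type. As a ratio of mean TPM, treated over untreated, the members ran from 2.25 (Plcd4) to 5.99 (Ppp1r36) in the knockout and from 5.38 (Sytl1) to 9.95 (Nectin4) in wild type.

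Across the 12 libraries the members had Pearson r of log2(TPM + 1) from 0.82 to 0.99 over the 45 pairs. The wild-type libraries that chose the members are among these, which favours a high r, so nothing is read from it. The 5 other named genes most like their mean standardized profile were Mcam, Prrg4, Btg2, Wdr35 and Gpx3 (r = 0.997 to 0.998 over 12 libraries). These stood much higher in untreated cells, since Mcam, an adhesion molecule, had 114 TPM in the untreated knockout and 88.2 TPM in untreated wild type. Gpx3, a secreted glutathione peroxidase, had 91.3 TPM in the treated and 47.6 TPM in the untreated knockout, against 83.2 TPM in treated and 26.8 TPM in untreated wild type. Likeness chose these genes, so their difference between genotypes is not tested.

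Genes next to the members on the chromosome were mostly flat, while a few changed with them. Of the 20 nearest fitted neighbours, 1 on each side, 5 were called higher and none lower in the knockout, against 14.5% called higher of all genes. Their median change was 0.02. Ltb4r2, which encodes the low-affinity leukotriene B4 receptor BLT2 and ends 631 bases before Ltb4r1 on the same strand, had 21.3 ± 1.95 TPM in the treated knockout and 10.0 ± 1.39 TPM in the untreated knockout (1.02 ± 0.13, limma adjusted p = 0.000107). Dusp13a, the muscle paralog 3439 bases from Dusp13b, had 3.4 ± 1.33 TPM in the treated and 1.03 ± 0.66 TPM in the untreated knockout (1.12 ± 0.22, limma adjusted p = 0.00268), and reads shared between these paralogs were not tested. Map3k6, a stress kinase gene that converges on Sytl1 with 161 bases between their ends, had 5.88 ± 0.13 TPM in the treated and 2.35 ± 0.63 TPM in the untreated knockout (1.05 ± 0.12, limma adjusted p = 5.09e-05). Ppl, which encodes the junction protein periplakin and lies 14413 bases from Sec14l5, changed by 0.71 ± 0.12, and Gprin2, 85117 bases from Anxa8, by 0.48 ± 0.11 (limma adjusted p = 0.000676 and 0.00523).

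Other close neighbours did not pass the test. Zfp142, which ends 353 bases from Plcd4, had 34.1 TPM in the treated and 34.2 TPM in the untreated knockout. Arhgap30 begins 673 bases after Nectin4 and had 17.9 TPM in the treated and 17.8 TPM in the untreated knockout. Usp37 overlaps the start of Plcd4 by 2273 bases on the opposite strand, at 53.5 TPM in the treated and 55.8 TPM in the untreated knockout (-0.06 ± 0.04). The tables do not say whether strand was used in counting, and reads shared with Usp37 were not tested. A630023A22Rik spans Anxa8 on the opposite strand and was listed at 0 in every library, and Gm26973 spans Nkx2-9 at group means of at most 0.119 TPM.

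**Figure D4:**
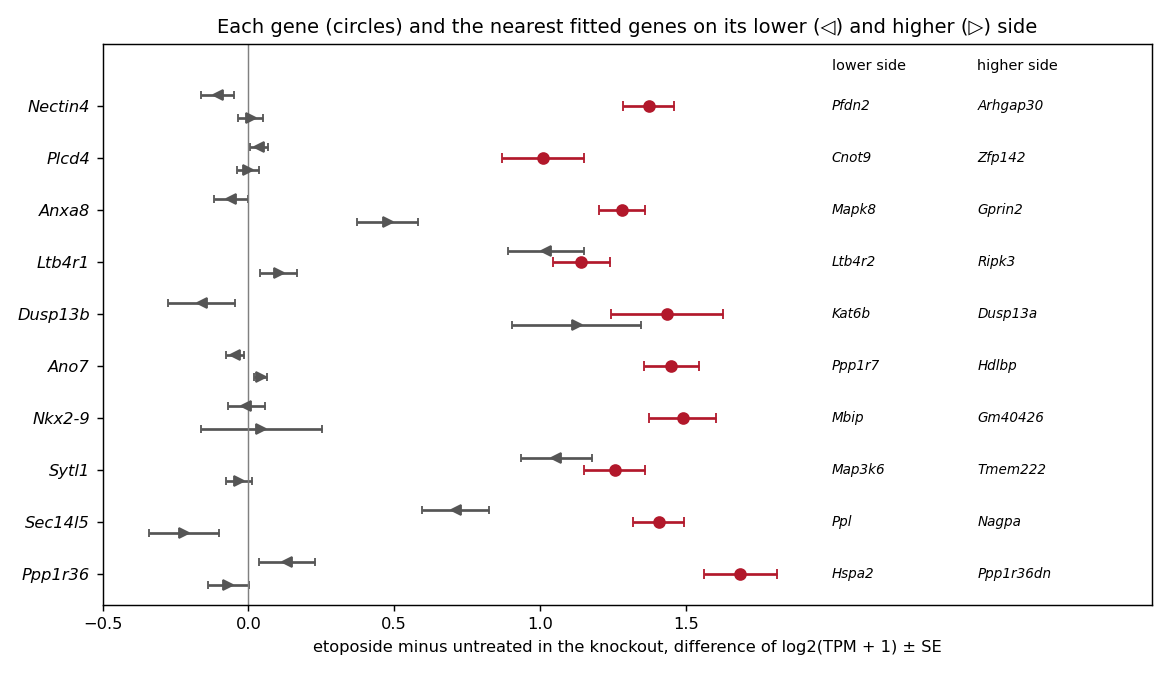
Difference of log2(TPM + 1) ± SE between etoposide and untreated knockout libraries for each of the 10 genes (red circles) and the nearest fitted genes at lower (left triangles) and higher (right triangles) coordinates, named at the right. Ltb4r2, Dusp13a and Map3k6 lie at 1.02 to 1.12 beside their neighbours, while most other triangles lie near 0.

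Relatives of the members by family were described from lists of known genes, with the members left out. Each family count in this and the next paragraphs stands against 14.5% of all fitted genes called higher and 10.5% called lower in the knockout. Of the 5 fitted nectins and partners, 5 were called lower in the knockout, including Nectin3 (-0.38 ± 0.08) and Nectin2 (-0.26 ± 0.05) with Nectin1 near the threshold (limma adjusted p = 0.0475), where all genes had 10.5% called lower. In wild type 4 of the 5 were called lower, against 13.5% of all genes. Phospholipases C had 3 called higher and none lower of 10, led by Plch2 (1.27 ± 0.09, limma adjusted p = 1.14e-06), which had 5.21 TPM in the treated and 1.58 TPM in the untreated knockout, and by Plcg1 (0.51 ± 0.03). Annexins had 1 called higher and 2 lower of 9, with Anxa6 at -0.15 ± 0.03 and Anxa3 at 0.30 ± 0.08, a call that ended without replicate 1 of the untreated knockout or replicates 1 or 3 of the treated knockout (limma adjusted p up to 0.0701).

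The leukotriene genes had 2 called higher and none lower of 5, namely Ltb4r2 and Alox5. Alox5, the lipoxygenase that starts leukotriene synthesis, had 2.79 TPM in the treated and 0.935 TPM in the untreated knockout (1.00 ± 0.19, limma adjusted p = 0.00192), and 2.81 TPM in treated and 0.557 TPM in untreated wild type. Dual-specificity phosphatases had 3 called higher and 1 lower of 16. Dusp13a and Dusp3 (0.35 ± 0.06) were higher, while the calls of Dusp19 (0.30 ± 0.10, limma adjusted p = 0.0494) and Dusp6 (-0.19 ± 0.06, limma adjusted p = 0.0257) ended under 11 and 5 of 13 alternatives. Of the 6 anoctamins fitted, Ano3 was called higher (0.80 ± 0.08, limma adjusted p = 1.09e-05), at 17.7 TPM in the treated and 9.77 TPM in the untreated knockout, and none was called lower. None of the 6 other Nkx2 factors passed the filter of a mean of 1 TPM, and the highest group mean among them was 0.865 TPM, of Nkx2-2 in the treated knockout.

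Among the Rab27 genes and Sytl relatives, Rab27a was the 1 called higher of 3 (0.40 ± 0.06, limma adjusted p = 0.000388), at 16.2 TPM in the treated and 12.0 TPM in the untreated knockout. Sec14-like genes had none higher and 1 lower of 5, Sec14l1 at -0.15 ± 0.04. Protein phosphatase 1 genes had 4 higher and 5 lower of 23, led by Ppp1r14a (1.15 ± 0.07) and Ppp1r13l (0.91 ± 0.05), which encodes the p53 inhibitor iASPP. Family medians in the knockout lay between -0.18 for the nectins and 0.28 for the Rab27 list, against 0.00 over all genes.

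Known p53 targets, the pathway background of the drug, had 37 called higher and none lower of the 43 fitted in the knockout, with a median of 0.67 (14.5% of all genes called higher, 10.5% lower). In wild type 38 were called higher and 1 lower of 43, with a median of 1.00 against 0.02 over all genes, of which 20.8% were called higher and 13.5% lower. Trp73, which encodes the p53 relative p73, had 36.7 TPM in the treated and 12.6 TPM in the untreated knockout (1.48 ± 0.05). Btg2, an antiproliferative factor, was at 164 TPM in the treated and 74.98 TPM in the untreated knockout (1.12 ± 0.03). The transcript of Trp53 itself was at 532 TPM in the treated and 548 TPM in the untreated knockout, and its change of -0.04 ± 0.02 did not pass (limma adjusted p = 0.212).

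Marker sums of other tissues were led by a few genes each, and some defining markers were at or near 0. Summed stratified epithelium markers were 54.3 to 56.9 TPM in the treated knockout and 37.5 to 43.1 TPM in the untreated knockout, against 46.1 to 47.7 TPM in treated and 26.8 to 28.6 TPM in untreated wild type. Of the 12 genes measured, 6 reached 1 TPM, led by Itgb4 (0.58 ± 0.06, limma adjusted p = 2.1e-05) and Cdh3 (0.14 ± 0.06, adjusted p = 0.119), Krt6a was at 0, and Krt14, Trp63, Dsg3 and Ivl had group means of at most 0.089 TPM. Other markers of the list stood higher with etoposide. Krt15 had 4.84 TPM in the treated and 1.37 TPM in the untreated knockout. Krt5 had 1.09 TPM in the treated and 0.377 TPM in the untreated knockout, and 0.79 TPM in treated and 0.171 TPM in untreated wild type. Dsc3 had 0.243 TPM in the treated and 0.071 TPM in the untreated knockout. Krt17 (0.08 ± 0.13) and Lgals7 (0.14 ± 0.17) changed little in the knockout. The sums stood in the group order of Nectin4. Anxa8 differed from that order under etoposide, where its knockout libraries lay below the wild-type ones. The part of these sums in the result was not tested.

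Leukocyte markers summed to 282 to 312 TPM in the treated and 276 to 291 TPM in the untreated knockout, and to 276 to 278 TPM in treated and 232 to 251 TPM in untreated wild type. Laptm5 alone held 287 TPM of the treated knockout sum, while Tyrobp was at 0 and Ptprc reached a group mean of 0.036 TPM. Spermatid markers summed to 4.79 to 5.33 TPM in the treated and 4.02 to 4.90 TPM in the untreated knockout, nearly all from Ldhc. Their sum in wild type was 4.98 to 6.51 TPM with etoposide and 5.58 to 6.04 TPM without. Of these 11 markers, 5 were at 0 everywhere. Prostate markers summed to 8.95 to 12.3 TPM in the treated and 8.79 to 10.8 TPM in the untreated knockout, with Pbsn and Defb50 at 0. In wild type the prostate sum was 7.19 to 8.63 TPM with etoposide and 7.10 to 10.1 TPM without. Skeletal muscle markers summed to 246 to 263 TPM in the treated and 245 to 275 TPM in the untreated knockout, led by Mylpf. Neuron markers summed to 188 to 193 TPM in the treated and 209 to 222 TPM in the untreated knockout, led by Stmn2. Neural tube and foregut markers summed to 12.5 to 16.6 TPM in the treated and 10.3 to 11.6 TPM in the untreated knockout, nearly all from Hhex, with Shh at or near 0. Fibroblast markers summed to 13.8 to 14.96 TPM in the treated and 10.8 to 11.9 TPM in the untreated knockout, with Fbln2 the highest, and trophectoderm markers to 74.9 to 80.0 TPM in the treated and 80.4 to 84.7 TPM in the untreated knockout, led by Tfap2c. Their part in the members' rise was not tested.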

How the data were processed

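RNA abundance per gene was measured in 12 libraries of mouse embryonic stem cells. Per the labels, RNA was poly(A) selected, ribosomal RNA was removed and strand-specific libraries were made. Per the submitters' processing notes, Trim Galore 0.6.6, cutadapt 3.4, HISAT2 2.2.1 and StringTie 2.2.1 were used with GRCm39. The TPM that the authors deposited is scaled by transcript length and to a fixed total, their deposited FPKM by length and fragments, and their deposited coverage is mean read depth per base, all named so per the file headers. No read counts were used. Entries that shared an identifier were summed, and the 14107 genes with a mean of at least 1 TPM over the 12 libraries were fitted. That filter let all 10 members pass, 9 of them also over the 6 untreated libraries and 7 over untreated wild type alone. Limma 3.58.1 (R 4.3.3) was fitted to log2(TPM + 1) with 4 group means and a variance trend. P values were adjusted by Benjamini-Hochberg over all genes of a comparison and called below 0.05. The code was tested on simulated data. Aligned bases were taken from the most frequent ratio of coverage to FPKM. The members and gene lists were chosen with earlier results of these data known. Genes named besides the members were up to 4 called genes of the lowest adjusted p per family or p53 list, up to 2 highest markers per cell type, the nearest fitted gene on each side, overlapping genes and the 5 most alike in profile. Others are named as chosen after their values were seen, as are markers listed at or near 0, Trp53, and the genes around the smallest member. Alternatives were a pseudocount of 0.1, other filters, FPKM, median-of-ratios scaling, a replicate block, the compared groups alone and leaving out each library. An exact permutation test of 3 against 3 libraries cannot go below 0.1. Promoters were from RefSeq on GRCm38.p6, whose start sites were not compared with those of the tables. Python 3.11.15, numpy 2.4.6, pandas 2.3.3 and matplotlib 3.10.9 were used.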

Additional observations from a re-analysis of the deposited data

Results flagged for a closer look

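Genes named by rule, without the members and the 5 chosen for a like profile (Btg2, also a p53 target, among them), were compared for a difference of the etoposide change between genotypes (knockout minus wild type, limma interaction with Benjamini-Hochberg adjustment). Of 63 such genes, 8 passed, each with a smaller change in the knockout. Among all genes, 1.16% were called in that direction and 0.0709% in the other. Family and p53 genes among the 63 were named for their knockout change with etoposide. The share of the 63 is therefore not comparable with that of all genes. The p53 targets were Plk2 (-0.86 ± 0.05, adjusted p = 9.8e-06) and Rap2b (-0.41 ± 0.05, adjusted p = 0.00113). At most 4 genes of the p53 list were named by rule, so these do not describe the whole list. Targets outside that rule also passed, such as Perp (-0.82 ± 0.09, adjusted p = 0.000591) and Mdm2 (-0.41 ± 0.05, adjusted p = 0.00127). Others did not pass, such as Bax (-0.05 ± 0.04, adjusted p = 0.713) and Tigar (0.30 ± 0.09, adjusted p = 0.203). Relatives of the members were Plch2 (-0.77 ± 0.13, adjusted p = 0.0129), Ano3 (-0.62 ± 0.11, adjusted p = 0.0159) and Rab27a (-0.42 ± 0.08, adjusted p = 0.0366). Tissue markers were Fbln2 (-0.56 ± 0.11, adjusted p = 0.0249), Cdh3 (-0.46 ± 0.09, adjusted p = 0.0247) and Itgb4 (-0.44 ± 0.09, adjusted p = 0.0278). Plk2 had 172 TPM in the treated and 82.4 TPM in the untreated knockout, and 124 TPM in treated and 32.1 TPM in untreated wild type. Plch2 had 5.21 TPM in the treated and 1.58 TPM in the untreated knockout, and 4.98 TPM in treated and 0.455 TPM in untreated wild type.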

How the results depend on the processing

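Each member kept its rise with etoposide in the knockout, past the threshold, under all 13 alternatives run. The lowest and highest changes of the 10 were 1.16 and 2.46 with a pseudocount of 0.1, 0.81 and 1.30 with FPKM, and 0.89 and 1.73 over the settings that left out 1 library, with adjusted p values of at most 0.0015. Genes called in the knockout numbered 3525, and 2813 to 3095 when 1 library was left out, 3006 with the compared groups alone and 3609 with median-of-ratios scaling. Same-numbered libraries of the knockout groups had correlations of deviations of 0.011, -0.017 and 0.045. No shared effect of replicate number was seen in these, and the labels do not say whether the numbers pair libraries. With replicate number as a block, 3391 genes were called and the members' largest adjusted p was 0.000744. Scaling by median-of-ratios moved the median of all genes by at most 0.027 in size. Without a filter on low values the members' changes were equal to those given, with a largest adjusted p of 0.00142. With the filter taken from wild-type libraries alone it was 0.000248. Of the neighbours and relatives named by rule, the calls of Anxa3, Dusp6 and Dusp19 ended under 3, 5 and 11 alternatives. The call of Nectin1 (limma adjusted p = 0.0475), named outside that rule, was not followed under them. The cause was not tested. Depth limits the genes under 1 TPM, and Ppp1r36 and Sec14l5 rest on under 2 reads per base in each untreated wild-type library. The lowest untreated wild-type library had 1.62 reads per base for Plcd4, 1.57 for Dusp13b and 1.95 for Ano7.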

Other observations

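Given here are 4 fitted tissue markers that were low in untreated wild type and higher with etoposide, chosen after their values were seen. Other markers of the same lists went otherwise. Krt17 changed by 0.08 ± 0.13 and Lgals7 by 0.14 ± 0.17 in the knockout, and Krt8 (-0.32 ± 0.07), Eomes (-0.35 ± 0.10) and Cdx2 (-0.41 ± 0.13) fell there (limma adjusted p = 0.00359, 0.0216 and 0.0328). Krt15, a keratin of the basal epidermis, had 4.84 ± 0.36 TPM in the treated and 1.37 ± 0.32 TPM in the untreated knockout, and 2.66 ± 0.48 TPM in treated and 0.325 ± 0.10 TPM in untreated wild type (SD, n = 3 each). Its change was 1.31 ± 0.13 in the knockout and 1.46 ± 0.13 in wild type. Itgb2, the beta chain of leukocyte integrins, had 2.57 ± 0.09 TPM in the treated and 0.688 ± 0.22 TPM in the untreated knockout, and 2.54 ± 0.73 TPM in treated and 0.247 ± 0.07 TPM in untreated wild type. Ckm, the muscle creatine kinase, had 2.78 ± 0.48 TPM in the treated and 1.30 ± 0.22 TPM in the untreated knockout, and 2.39 ± 0.32 TPM in treated and 0.276 ± 0.21 TPM in untreated wild type. Krt7, a keratin of simple epithelium, had 4.01 ± 0.32 TPM in the treated and 1.75 ± 0.56 TPM in the untreated knockout, and 4.00 ± 0.83 TPM in treated and 1.25 ± 0.05 TPM in untreated wild type. Treated means exceeded untreated means in both genotypes for these 4 genes. Between untreated knockout and untreated wild type, the difference of Krt7 did not pass the test (0.27 ± 0.15, limma adjusted p = 0.146). Those of Krt15 (0.83 ± 0.13), Ckm (0.86 ± 0.15) and Itgb2 (0.43 ± 0.15) passed, with limma adjusted p of at most 0.0302. These genes were chosen as low in untreated wild type, which favours that direction, so those passes lend no support.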
